A study of Mus musculus with 9 samples.

Results

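The 7 genes described here, Fyb, Plcg2, Csf1r, Syk, Btk, Inpp5d and Lyn, encode proteins that carry signals from immune receptors, and they were examined among 21887 protein-coding genes. Fyb, Plcg2 and Csf1r were taken because their H3K27ac was wider in oligodendrocytes (OLs) than in oligodendrocyte progenitor cells (OPCs). For these 3 genes that contrast is therefore given as a description, with no test. Syk, Btk, Inpp5d and Lyn were added as kinases and a phosphatase of the same pathways, not for their values. Earlier results of these data were known when they were added.

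Chromatin immunoprecipitation followed by sequencing (ChIP-seq) had mapped H3K27ac, a histone acetylation found at active promoters and enhancers, and the transcription factor SOX6. The OPCs were grown from the mouse epiblast stem cell lines EpiSC5 and 129O1, derived from strains 129SvEv and 129S1/SvImJ. They were sorted on CD140a and NG2 and kept in medium with bFGF and PDGFA, without added SHH. The OLs were intermediate O1-positive cells harvested with an autoMACS sorter. The labels name no genetic change and no drug in any group. For H3K27ac there were 4 lists of peaks, 1 for each line and state, and for SOX6 there were 3, with SOX6 in OL of 129O1 not analysed here. Values given in pairs below follow the order 129O1, EpiSC5. Each line gave 1 list per state, so a p-value below rests on 2 lines. The spread behind each p-value and SE was moderated by limma (1 residual degree of freedom, prior 5.04). It thus comes mostly from all genes tested and less from the gene's own 2 lines. As bulk chromatin was used, acetylation in a few cells and weak acetylation in many cannot be told apart.

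In immune cells these proteins form a relay. CSF1R is the receptor tyrosine kinase for colony-stimulating factor 1 and interleukin 34 and maintains microglia and macrophages. Receptors that bear or pair with tyrosine-based activation motifs are phosphorylated by Src-family kinases such as LYN, and then recruit the kinase SYK. SYK and the Tec-family kinase BTK activate phospholipase C gamma 2 (PLCG2), which releases calcium through inositol trisphosphate. FYB (also called ADAP) is an adaptor that links such signals to integrins, and INPP5D (SHIP1) is a phosphatase that removes the phosphate on which BTK recruitment depends.

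The oligodendrocyte markers followed the labels more clearly than the OPC markers did. Of 10 oligodendrocyte markers 9 were wider in OL and none narrower, with a median log2 change of 1.86. Of 7 OPC markers 2, Pdgfra and Ptprz1, were narrower and 5 were not called, with a median of −0.24. Among all genes tested 12.5% were wider and 16.4% narrower. Of 6 astrocyte markers 1 was wider, and of 6 neuron markers 1 was wider and 1 narrower. H3K27ac lists held 27721 to 33738 peaks and covered 37.2 to 50.9 Mb. SOX6 lists held 22876 and 15487 peaks in OPC and 3893 in OL. The labels give a minimum of 20000000 reads per sample but no depth of each list, and fewer peaks in a list cannot be told apart from lower depth.

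Covered length, or breadth, is the length of a gene body plus 10 kb each side that lies under peaks. The receptor gene Csf1r (chromosome 18, 61105572 to 61131139, mm10) stood at 0 kb in both OPC lists and at 2.78 and 1.68 kb in the OL lists. Fyb (chromosome 15, 6522796 to 6665608) had 0.324 and 0 kb in OPC, against 12.6 and 13.7 kb in OL. Plcg2 (chromosome 8, 117498275 to 117635142) had 0 and 0.34 kb in OPC, and 12.7 and 12.4 kb in OL. All 3 genes thus went from no peak, or 1 short peak in 1 line, to several peaks in both lines, and their OPC and OL values did not overlap. On the log2 scale of scaled covered kb plus 1, the changes in the pair of lines were 3.23 and 3.93 for Fyb, 3.61 and 3.30 for Plcg2 and 1.79 and 1.46 for Csf1r. These values chose the genes and support nothing further. Csf1r, with a mean of 1.05 kb, lay just inside the minimum of 1 kb needed for a gene to enter the test, and Lyn, with 0.644 kb, just outside it.

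**Figure D1:**
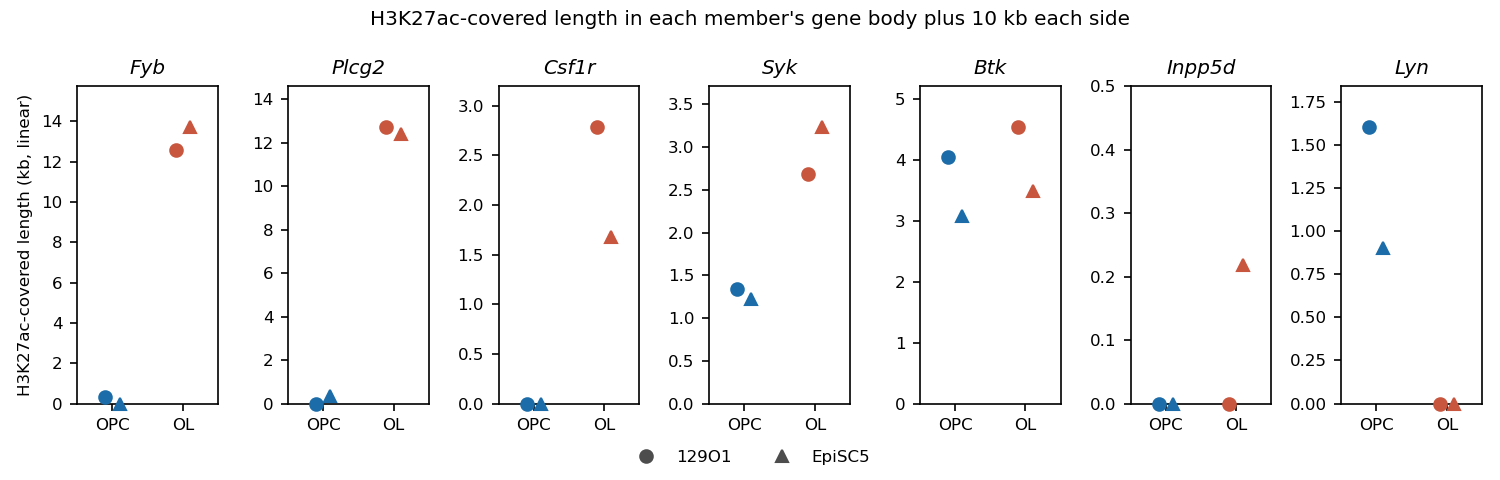
H3K27ac-covered length in kb (linear axes from 0, a separate scale for each gene) in OPC and OL, with 1 point per list, circles for 129O1 and triangles for EpiSC5. Fyb, Plcg2, Csf1r and Syk have both OL points above both OPC points, Btk overlaps, Lyn is above 0 in OPC alone, and Inpp5d has 1 point above 0, at 0.219 kb.

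The kinase genes did not share one pattern. Syk (chromosome 13, 52582610 to 52648792) carried 1.34 and 1.22 kb as OPC and 2.69 and 3.23 kb as OL. Its breadth rose by 0.70 ± 0.18 on the log2 scale (SE over 2 lines, adjusted p = 0.0333, limma), and it was higher in 2 of 2 lines. Btk (chromosome X, 134542334 to 134583628) carried 4.05 and 3.08 kb as OPC and 4.54 and 3.49 kb as OL, so its groups overlapped. Its change was 0.02 ± 0.17 and was not called (adjusted p = 0.915, limma). Lyn (chromosome 4, 3678068 to 3791612) went the other way, with 1.60 and 0.902 kb as OPC and 0 kb in either OL list. No test was made for it. The phosphatase gene Inpp5d (chromosome 1, 87620312 to 87720510) had 0 kb in 3 lists and 0.219 kb in OL of EpiSC5. Acetylation in OL therefore describes neither Lyn nor, beyond 1 short peak, Inpp5d.

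Of the 7 genes 5 reached the minimum of 1 kb, and Inpp5d and Lyn were not tested. Of the 4 genes chosen by pathway 2 were tested, and 1 was called wider. A call needed an adjusted p below 0.05 (limma) and 1 direction in the pair of lines. Across 12459 genes tested, 12.5% were called wider in OL, 16.4% narrower and 28.9% either. The call on Syk was lost over the gene body alone (0.27, adjusted p = 0.264, limma), with equal numbers of peaks per list (0.54, adjusted p = 0.139, limma), and without the cell line as a replicate block (0.70, adjusted p = 0.0540, limma). It was also lost with no filter on low coverage (0.70, adjusted p = 0.209, limma), and without OPC of 129O1 (0.63), OPC of EpiSC5 (0.78) or OL of EpiSC5 (0.52), at adjusted p from 0.0969 to 0.260 (limma). Both OL lists lay above both OPC lists for 4 of the 7 genes, against 15.4% of all protein-coding genes, and below them for Lyn, against 36.0%. As 3 of those 4 were chosen for it, nothing is read from that count. Csf1r was the only one of the 7 with peaks in both OL lists and none in OPC, a pattern of 1.92% of all protein-coding genes. As Csf1r was chosen on these values, nothing is read from that share. Lyn was the only one with the opposite pattern, held by 2.61%. None of the 7 lacked a peak in every list, as 27.9% of all protein-coding genes did. Fyb, Plcg2 and Csf1r could not lack one, given how they were chosen, so nothing is read from that count.

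The 2 cell lines were compared as well. From EpiSC5 to 129O1 the difference was −0.26 ± 0.18 at Syk (SE over 2 states, adjusted p = 0.750, limma) and 0.06 ± 0.17 at Btk (adjusted p = 0.949, limma). Neither was called, and 0 of these 2 had an unadjusted p under 0.05. Fyb (0.03 ± 0.22), Plcg2 (−0.34 ± 0.18) and Csf1r (0.17 ± 0.27) entered the fit only through OL, where they were chosen to be wide, so their differences between lines are given as a description. Across all genes tested 0.0883% were called in this contrast. Over the whole genome 58.6% of the length covered in either OL list lay under peaks of both lines, and 65.5% in OPC. At Fyb 11.8 of the 14.6 kb covered in either OL list lay under peaks of both lines, at Plcg2 11.1 of 14.0 kb, and at Csf1r 1.68 of 2.78 kb, so that every covered base of EpiSC5 at Csf1r was also covered in 129O1. The shared part of OL was thus 80.7% at Fyb, 79.5% at Plcg2 and 60.6% at Csf1r, the genes chosen on OL, and 59.8% at Syk, 61.7% at Btk and 0% at Inpp5d. In OPC it was 91.6% at Syk, 76.0% at Btk, 23.7% at Lyn, and 0% at Fyb and Plcg2, where 1 line had a single short peak.

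**Figure D2:**
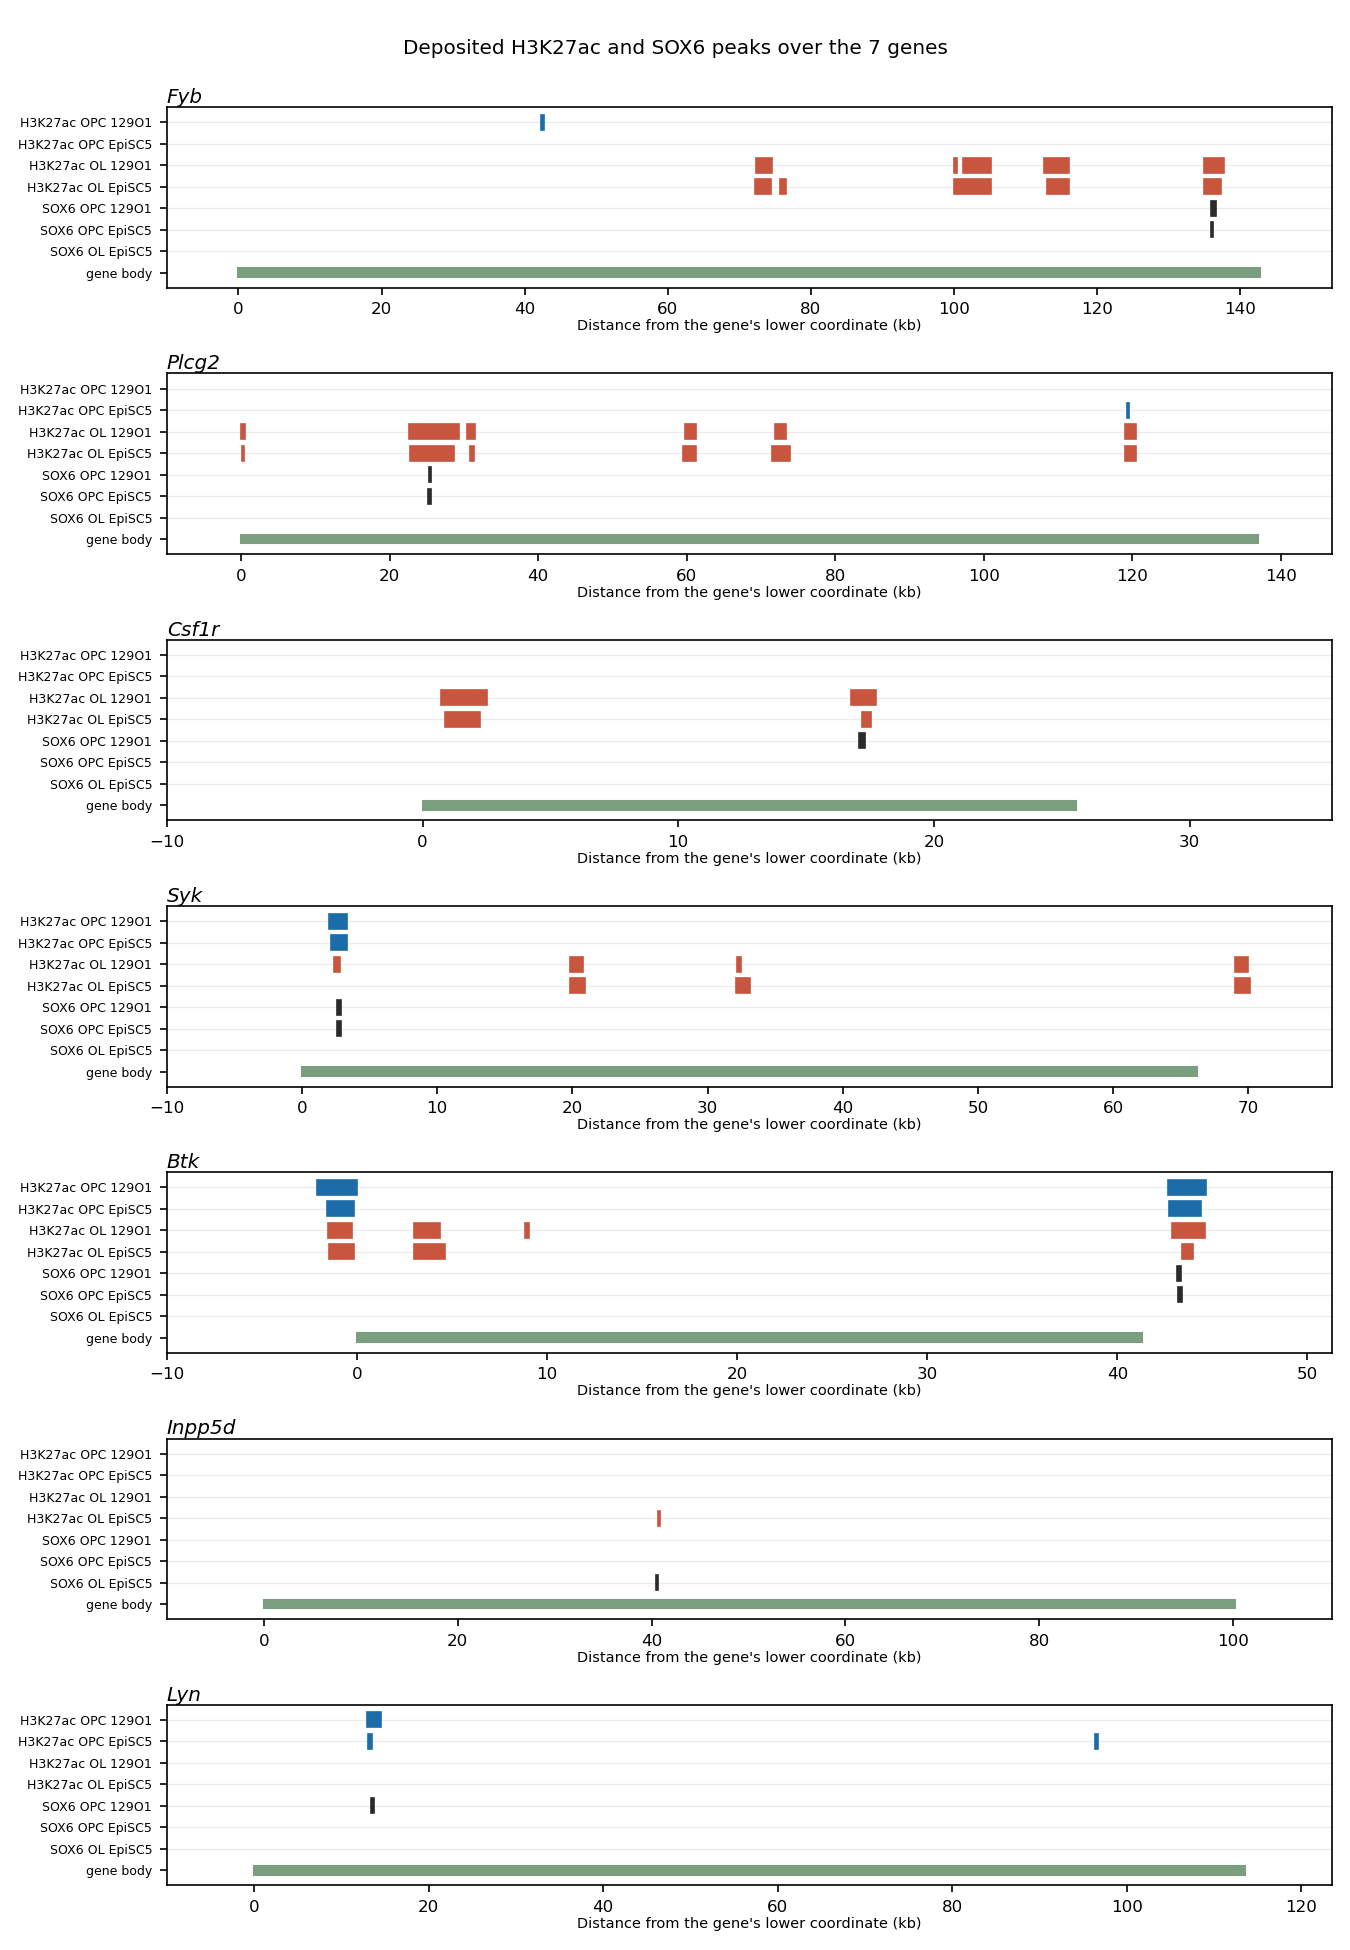
Deposited peaks over each gene body and 10 kb each side, by distance in kb from the gene's lower coordinate, with H3K27ac in OPC (blue) and OL (red), SOX6 (black) and the gene body (green). A thin outline widens the narrowest marks. The OL peaks of Fyb and Plcg2 recur at the same places in both lines, and the black OPC SOX6 marks of Fyb and Plcg2 fall within red OL peaks.

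The peaks of the 4 H3K27ac lists merged into 25 regions over the 7 genes, of which 15 were present in OL of both lines and in no OPC list. Fyb held 4 of these, Plcg2 5, Csf1r 2, Syk 3 and Btk 1, and their widths ran from 481 to 6702 bp. At least 1 such region lay in the window of 21.1% of all protein-coding genes. Nothing is read from that share for Fyb, Plcg2 and Csf1r, which were chosen on OL breadth. In Plcg2 the widest spanned 117520921 to 117527622, followed by a region of 2506 bp at 117569716 and one of 1765 bp at 117557812. A peak at 117617216 to 117618723 was present in OL of both lines and, as a piece of 340 bp, in OPC of EpiSC5. In Fyb the 4 regions spanned 5158 bp from 6622761, 3530 bp from 6635393, 2840 bp from 6657684 and 2277 bp from 6595026. The regions at 6622761 and 6635393 also lay over the lncRNA gene Gm2245, so the signal there cannot be assigned to Fyb alone.

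Within Csf1r a region of 1809 bp began 730 bp above the gene's lower coordinate, and one of 970 bp at 61122329 also lay over the lncRNA gene Gm52352. The 4 Syk regions differed in which lists held them. The region at 52584636 to 52585971, present in OPC of both lines, was held in OL by 129O1 alone and there by a peak of 467 bp. Regions of 1108 bp at 52602444 and 1021 bp at 52614710, within the gene, and of 1110 bp at 52651601, beyond its upper end, were present in OL of both lines alone.

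Most of the breadth in the Btk window lay over other genes. Its 2 regions present in all 4 lists lay outside the gene body and over Timm8a1, which encodes a mitochondrial import protein, and Rpl36a, a ribosomal protein gene. Inside the Btk body OPC had 0 kb in both lines, and OL had 1.56 and 1.65 kb in 129O1 and EpiSC5. Most of that was a region of 1646 bp at 134545342 that was present in OL of both lines alone. The groups thus overlapped over the whole window but not over the gene body, where the mean was under 1 kb and no test was made. Lyn held a region at 3690983 to 3692587 in OPC of both lines alone. A region of that class lay in the window of 14.0% of all protein-coding genes.

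The authors' fold enrichment ranks peaks within a list. In OL of EpiSC5 the Fyb peak at 6657684 stood at the 98.8th percentile of all peaks, with a fold of 9.59, and in OL of 129O1 its counterpart at 6657763 stood at the 89.5th, with 6.60. The widest Plcg2 peak stood at the 94.7th percentile in OL of 129O1 and the 97.9th in OL of EpiSC5. The OL-only Btk peak reached the 79.4th and 95.1st percentiles in the same order. In OL of 129O1 the Fyb peaks at 6635393 and 6624077 ranked above the one at 6657763, at the 94.6th and 92.0th percentiles. A peak of the Btk window in the Timm8a1 region stood there at the 92.4th, above the OL-only peak. The lowest OL peaks in these 3 windows stood at the 30.9th and 26.0th percentiles at Fyb, the 25.6th and 14.8th at Plcg2, and the 37.6th and 24.5th at Btk. All Csf1r peaks lay between the 29.7th and 68.1st percentiles, and all Syk peaks in OL between the 26.7th and 66.7th. The Lyn peaks of OPC stood at the 14.7th in 129O1 and at the 20.9th and 43.7th in EpiSC5, and the single Inpp5d peak at the 43.1st.

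**Figure D3:**
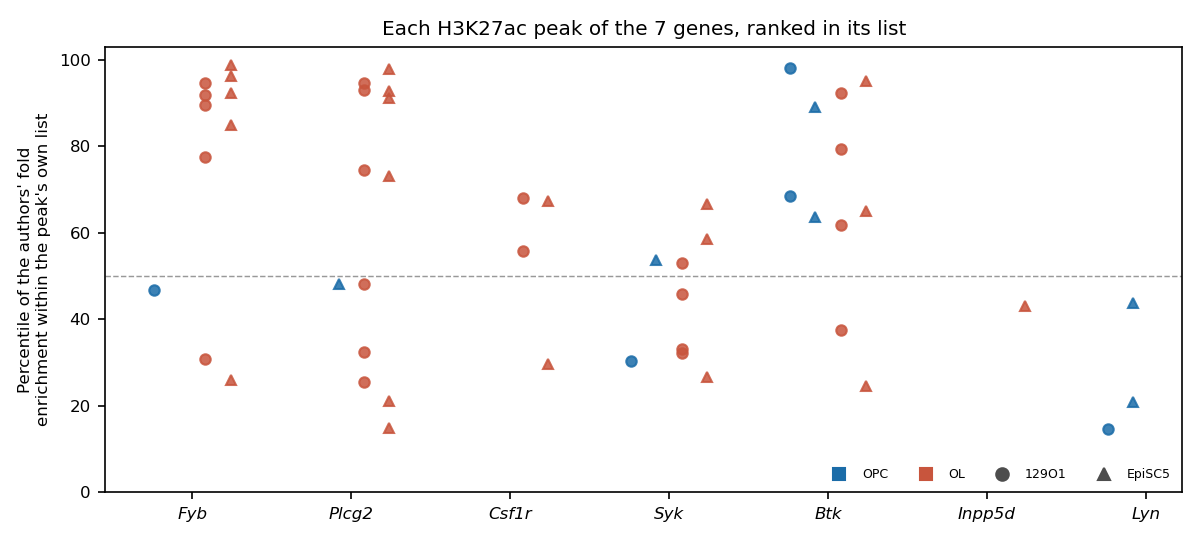
Each H3K27ac peak of the 7 genes as 1 point, by the percentile of the authors' fold enrichment among all peaks of its own list (dashed line at the median), blue for OPC and red for OL, circles for 129O1 and triangles for EpiSC5. Fyb and Plcg2 have OL peaks above the 90th percentile in both lines, and all Lyn peaks lie below the median.

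The RefSeq promoter table (GRCm38.p6, the assembly mm10 names) held starts for 5 of the 7 genes, Fyb, Plcg2, Syk, Btk and Inpp5d. For Fyb the only start in the table, 6579847, lies inside the gene body, which begins at 6522796. Distances and bases for Fyb refer to that inner start. No H3K27ac peak lay over one of these starts, in any list. In OPC 50.6% and 46.3% of the genes in the table, and in OL 43.5% and 33.0%, had a peak over a start. Plcg2 alone had an OL-only region within 1 kb of its start, which began 23 bp downstream of it, and 0.766% of 17492 genes in the table had such a region. As Plcg2 was chosen on OL breadth, nothing is read from that share. The nearest region lay 1199 bp downstream at Syk, 15179 bp downstream at Fyb for those held by OL, and at −1886 bp, upstream, at Btk, where it covered Rpl36a. The 250 bases before the start in the table are shown for Plcg2, Fyb and Inpp5d. Plcg2 had the peak beside its start, the Fyb start in the table lay far from its OL peaks, and Inpp5d had next to no peaks. Capitals mark matches to ACAAT, the core letters bound by SOX factors, and to AGGAAGT, letters bound by ETS factors such as PU.1, on either strand. The AP-1 letters TGANTCA were searched too, and none of the searched motifs overlap here.
Plcg2: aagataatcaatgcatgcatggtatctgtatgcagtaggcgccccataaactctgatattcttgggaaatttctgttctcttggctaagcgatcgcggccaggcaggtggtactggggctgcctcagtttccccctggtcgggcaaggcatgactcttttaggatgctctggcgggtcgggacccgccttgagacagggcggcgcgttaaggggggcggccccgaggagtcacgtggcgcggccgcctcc
Fyb: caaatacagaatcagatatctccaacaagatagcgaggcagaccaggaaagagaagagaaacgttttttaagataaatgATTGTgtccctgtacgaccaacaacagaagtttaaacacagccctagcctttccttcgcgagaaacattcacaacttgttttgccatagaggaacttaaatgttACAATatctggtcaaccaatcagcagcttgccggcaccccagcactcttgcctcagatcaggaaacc
Inpp5d: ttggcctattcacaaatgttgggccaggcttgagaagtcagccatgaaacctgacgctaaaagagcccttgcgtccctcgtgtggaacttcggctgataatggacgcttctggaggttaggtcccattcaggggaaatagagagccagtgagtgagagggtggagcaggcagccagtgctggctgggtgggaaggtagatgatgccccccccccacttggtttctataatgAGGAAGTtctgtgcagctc
The windows are chr8:117498025-117498274, chr15:6579597-6579846 and chr1:87620062-87620311, all on the plus strand. The Plcg2 window is 59.6% G and C with 17 CpG pairs, against 43.2% and 6 at Fyb and 54.4% and 5 at Inpp5d. The medians over 21263 promoters are 55.6% and 10. Fyb has ACAAT at 67 bases before its start and, on the other strand, at 171. Inpp5d has AGGAAGT at 19 bases before its start, and Plcg2 has no match. Of all promoters 25.1% hold ACAAT, 7.32% AGGAAGT and 6.13% TGANTCA. A match is a description of the letters, not evidence of binding, and none of the 3 windows shown held a SOX6 peak.

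SOX6 peaks lay elsewhere in these genes. In OPC of 129O1 SOX6 covered 0.591 kb at Fyb, 0.282 kb at Plcg2, 0.237 kb at Csf1r, 0.249 kb at Syk, 0.229 kb at Btk and 0.242 kb at Lyn. In OPC of EpiSC5 it covered 0.227 kb at Fyb, 0.292 kb at Plcg2, 0.268 kb at Syk and 0.197 kb at Btk, and 0 kb at Csf1r and Lyn. In OL of EpiSC5 all of these stood at 0 kb, and the only peak, of 0.169 kb, was at Inpp5d, which had none in OPC. A SOX6 peak was thus present for 6 of the 7 genes in OPC of 129O1, against 44.5% of all protein-coding genes, for 4 in OPC of EpiSC5 against 32.6%, and for 1 in OL against 16.3%. In both OPC lists it was present for 4 of the 7, against 31.2%. These shares are not matched for gene length, nor for H3K27ac, on which 3 of the 7 genes were chosen. With 1 OL list, the difference between OPC and OL in SOX6 was not tested, and the OL list was the shortest of the 3.

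Where both lines had a SOX6 peak, it was at nearly the same place. The summits of the strongest peaks in 129O1 and EpiSC5 lay 3 bp apart at Fyb, 5 bp at Syk, 55 bp at Plcg2 and 132 bp at Btk. The Fyb peak spanned 6658647 to 6659045 in 129O1, with a fold of 7.66 at the 77.3rd percentile of its list, and 6658740 to 6658966 in EpiSC5, with 4.86 at the 46.7th. The Plcg2 peak at 117523512 to 117523793 in 129O1 and 117523490 to 117523781 in EpiSC5 stood at the 77.7th and 70.6th percentiles. The Syk peak, at the 77.9th and 82.4th, lay in the region at 52584636 that OPC of both lines held. The Btk peak lay in the Rpl36a region, at the 14.7th and 13.3rd percentiles.

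Some OPC SOX6 peaks lay where acetylation was listed only in OL. The 2 OPC lists held 11 SOX6 peaks over the 7 genes, 7 in 129O1 and 4 in EpiSC5. A site found in both lines is thus counted once for each line. Of the 11 peaks 6, 4 in 129O1 and 2 in EpiSC5, were in H3K27ac of OL of both lines and of no OPC list. These were 3 at Fyb, 2 at Plcg2 and 1 at Csf1r. All 11 lay in H3K27ac of at least 1 list, as did 81.1% of all SOX6 peaks in OPC of 129O1 and 83.2% in OPC of EpiSC5. Peaks in OL-only acetylation made up 5.93% of all SOX6 peaks in OPC of 129O1 and 5.19% in OPC of EpiSC5. This count is not independent of the choice of genes, which were taken for their OL acetylation. Read from the side of the acetylation, 3 of the 15 OL-only regions held a SOX6 peak in at least 1 OPC list, against 15.9% of the 8300 such regions in the genome. In both OPC lists it was 2 of 15, at Fyb and Plcg2, against 7.8%. None of the 15 held a SOX6 peak of OL, against 3.53%. The counts of 3 and 2 lie near the genome's share. The only OPC-alone region, at Lyn, held a SOX6 peak of 129O1, and 43.2% of such regions in the genome held one in at least 1 OPC list. The single Inpp5d region, in OL of EpiSC5, was touched by the OL SOX6 peak at 87660809 to 87660977.

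The closest relatives of the 7 genes were set beside them. Plcg1, the phospholipase gene related to Plcg2 and used in most tissues, carried 3.19 and 2.25 kb as OPC and 9.60 and 7.22 kb as OL. Its breadth rose by 1.23 ± 0.17 (SE over 2 lines, adjusted p = 0.00731, limma), and with 50 kb each side the change was 0.20 and not called. Inppl1, which encodes SHIP2, the relative of Inpp5d, carried 5.09 kb in each OPC list and 5.94 and 5.87 kb as OL, and was not called (0.06 ± 0.18, adjusted p = 0.799, limma). Over the gene body alone it stood at −1.04 and was called narrower.

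Among Src-family kinases, Lyn's relatives, Fyn rose from 33.0 and 30.8 kb in OPC to 110 and 92.9 kb in OL (1.49 ± 0.12, adjusted p = 0.00246, limma). Src changed by −0.80 ± 0.17 and Fgr by −1.29 ± 0.27, both called narrower, Yes1 (0.29) and Lck (−0.81) were not called, Lck being called narrower when a mean of 3 kb was required, and Blk had too little coverage to be tested. Of the Tec kinases beside Btk, Tec (−1.17 ± 0.25) and Bmx (−1.45 ± 0.33) were narrower and Txk (−0.49) was not called. The groups of Tec overlapped, with 2.98 kb in OL of 129O1 above 1.7 kb in OPC of EpiSC5. Zap70, the relative of Syk, and Fyb2 also had no H3K27ac peak in any list. Skap2, which encodes a partner of FYB, was not called (−0.21 ± 0.18). Skap1 had 0.944 and 0.828 kb as OPC and none as OL. Of the receptor kinases related to Csf1r, Pdgfra (−2.45 ± 0.20) and Kit (−0.93 ± 0.26) narrowed, and Flt3 and Pdgfrb had no peak. Of 21 relatives 13 were tested, with 2 wider and 6 narrower, against 12.5% and 16.4% of all genes tested. Without the cell line as a block Kit lost its call (adjusted p = 0.151, limma), as it did without OL of 129O1 (−0.38, adjusted p = 0.299, limma) or OPC of 129O1 (−1.19, adjusted p = 0.294, limma). Under other settings the Src call was kept in 6 and lost in 7, among them the gene body alone (−0.65, adjusted p = 0.0746, limma). The Bmx call was kept in 3 and lost in 9. The Fgr, Tec and Bmx calls rested on uneven lines. Their changes in the pair of lines were −0.76 and −1.82, −0.72 and −1.61, and −2.10 and −0.80.

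**Figure D4:**
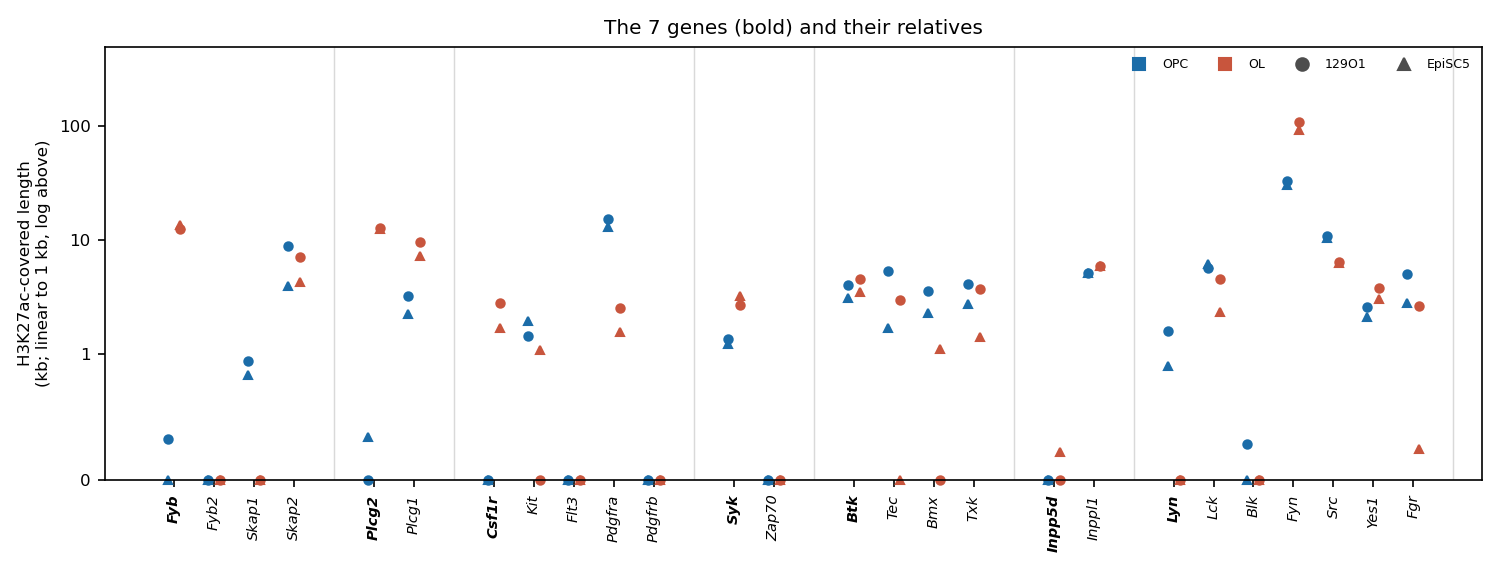
H3K27ac-covered length in kb (linear to 1 kb and logarithmic above) of the 7 genes, in bold, each followed by relatives of it, blue for OPC and red for OL, circles for 129O1 and triangles for EpiSC5. Fyn, at 110 and 92.9 kb in OL, has the most coverage of the genes shown, and Fyb2, Flt3, Pdgfrb and Zap70 lie at 0 in all 4 lists.

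The wider pathway was covered by lists chosen by role, of 75 genes without the 7. Of these 46 were tested, 6 were wider in OL, 13 narrower and 27 not called, with a median change of −0.38 against −0.24 over all genes tested. Over all genes tested the shares were 12.5% wider and 16.4% narrower. The 6 wider genes were Rasgrp3, a diacylglycerol-activated Ras exchange factor (2.23 ± 0.37), Ptpn11, which encodes the phosphatase SHP2 (2.15 ± 0.17), Itpr2, an inositol trisphosphate receptor (1.53 ± 0.18), Fyn, Plcg1 and Sh3bp2, an adaptor that binds SYK and PLCG2 (0.70 ± 0.18). Their adjusted p ran from 0.00246 to 0.0375 (limma). Ptpn11 went from 3.38 and 2.32 kb in OPC to 19.2 and 15.6 kb in OL, and Rasgrp3 from 1.62 and 0 kb to 6.38 and 6.99 kb. Leaving out either OPC list ended all 19 calls (limma). Without the cell line as a block 6 genes lost theirs, among them Sh3bp2, Fgr, Tec, Bmx and Rac2, with adjusted p from 0.0518 to 0.228 (limma), and Rasgrp3 lost its own without OL of EpiSC5 (2.07, adjusted p = 0.0635, limma).

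By role, of 2 ligand genes Il34 was narrower (−0.95 ± 0.19) and Csf1, with 3.78 and 3.10 kb in OPC and 3.68 and 3.02 kb in OL, was not called (−0.14). Of 15 receptor genes 1, Cd79a, had enough coverage and was not called. No peak in any list was found for 8, against 27.9% of all protein-coding genes, among them Trem2, Itgam and Cd22. A peak was present for 6 and 4 of the receptor genes in OPC and for 5 and 4 in OL. Some of these had more coverage in both OL lists than in both OPC lists, and others less. For the counts by role that follow, 12.5% of all genes tested were wider and 16.4% narrower. Of 13 kinases 9 were tested, with 1 wider and 4 narrower, and of 19 adaptors 15, with 1 wider and 2 narrower. The narrower adaptors were Gab2 (−1.27 ± 0.17) and Shc1 (−0.69 ± 0.17). The Shc1 call was lost over the gene body alone (−0.11, adjusted p = 0.760, limma), and also without OL of EpiSC5 (−0.63, adjusted p = 0.0789, limma). Of 7 phosphatases 6 were tested, with 1 wider and 2 narrower, among them Inpp4b (−1.08 ± 0.17). Of 19 effectors 13 were tested, with 3 wider and 4 narrower, among them Pik3r1 (−1.41 ± 0.19), Vav3 (−1.01 ± 0.17) and Rac2 (−0.91 ± 0.24). Under other settings the Rac2 call was kept in 2 and lost in 9, and the Sh3bp2 call was kept in 3 and lost in 8.

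**Figure D5:**
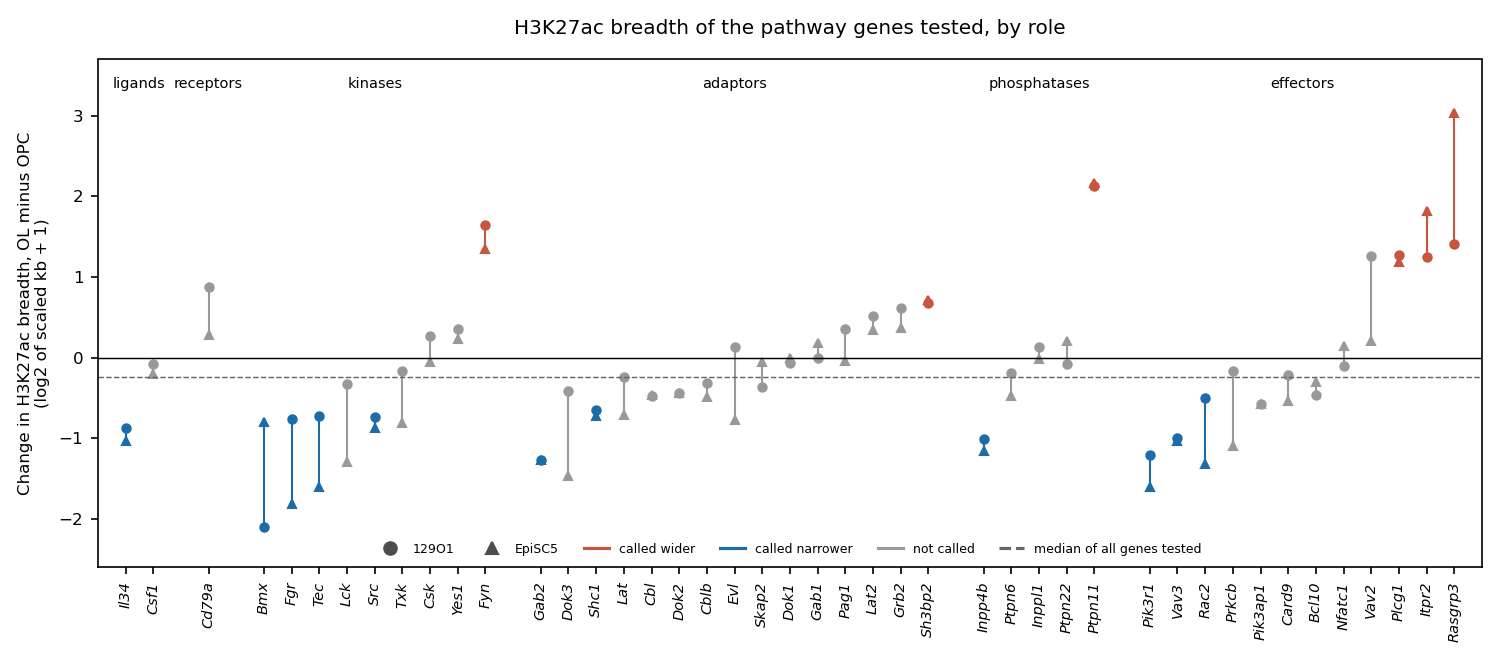
Change in H3K27ac breadth from OPC to OL (log2 of scaled kb plus 1) of 44 of the 46 pathway genes tested, by role, with circles for 129O1 and triangles for EpiSC5 joined by a line. Red genes were called wider, blue narrower and grey not called, and the dashed line is the median of all genes tested, −0.24. Of the genes drawn 6 are red and 11 blue, and the 2 not drawn were called narrower.

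Microglia are the brain cells in which these pathways are best known, and their markers were examined beside the 7 genes. Of 23 microglia and macrophage markers 13 had no H3K27ac peak in any list, against 27.9% of all protein-coding genes, among them Cx3cr1, C1qa, C1qb, C1qc, Spi1, Irf8, Adgre1, Trem2 and Itgam. A peak was present for 9 markers in OPC of each line and for 7 in OL of each line. Of the 21887 protein-coding genes, 14735 and 14293 had a peak in OPC and 14390 and 13499 in OL. The summed covered length of the markers was 29.5 and 25.4 kb in OPC and 21.5 and 13.2 kb in OL. Sall1 alone gave 9.90 and 9.53 kb of it in OPC and 6.78 and 3.40 kb in OL. Of 5 tested 0 were called wider (0 at an unadjusted p under 0.05) and 2 narrower, Sall1 (adjusted p = 0.0342, limma) and Runx1 (−0.88 ± 0.19, adjusted p = 0.0211, limma), against 12.5% and 16.4% of all genes tested. Cd68, Aif1 and Tmem119 were not called. Ptprc, which encodes CD45, had 1.72 and 1.52 kb in OPC and 0 kb in OL. Laptm5, a lysosomal gene of these cells, went from 0 and 0.611 kb to 1.32 and 0.897 kb and had too little coverage to be tested.

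Over the 4 lists, the genes nearest in breadth to the 5 tested were found by Euclidean distance on the log2 scale. Nearest to Plcg2 were Enpp6 (distance 0.311) and Prima1 (0.435), and nearest to Fyb were Ldhd (0.589) and Plcg2 itself (0.640). Csf1r lay closest to Oit3 (0.0749) and Plpp2 (0.0820), both with 0 kb in OPC and 1.54 to 2.75 kb in OL. Syk was closest to Nol7 (0.105) and Wdr76 (0.15), and Btk to Gapdh (0.0782) and Tcirg1 (0.0853). Such nearness rests on 4 values and shows only like coverage.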

How the data were processed

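Peak lists of 7 libraries were used; the 2 inputs were not analysed here. The submitters' processing notes name Bowtie2 2.3.2, Trim Galore 0.3.1, bedtools, deepTools and Picard, with mm10 as build. The caller of the peaks and its control are named in none of the sources used here. Every deposited list belongs to 1 library. The deposited score is 10 times the −log10 q, and the fold is the authors' ratio of signal over background per peak. The deposited −log10 p and q values were used only to rank peaks. The labels name 2 sequencers without assigning libraries to them, so that batch was not examined.

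Only chromosomes 1 to 19, X and Y entered. Gene positions came from NCBI RefSeq (GRCm38.p6), which gives no exons here, so introns and exons were not told apart. Covered kb per gene, over its body and 10 kb on either side, was scaled so that all lists had the same total, then log2 of kb plus 1 was taken. Genes whose scaled mean reached 1 kb were tested with limma 3.58.1 (trend, state and cell line as terms, 1 residual degree of freedom, prior 5.04) and Benjamini-Hochberg adjustment, with calls at an adjusted p below 0.05 and 1 direction in the pair of lines. OPC and OL share their cell line, which paired them, and deviations of same-line lists correlated at 0.273 across genes. The fit was tested on simulated data. Regions are peaks merged across lists, and an overlap of 1 bp counted as presence.

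The members and gene lists were chosen with earlier results of these data known. Named are the 7 genes, called pathway genes, fixed relatives, the 2 genes nearest in breadth, genes sharing a region, and some microglia markers; some genes of the lists were counted but are not reported here by name. Genes singled out beyond that were chosen after their values were seen. Coordinates are 1-based. Alternatives were other pseudocounts, filters, scalings, peak subsets, windows, overlap rules and left-out lists.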

Additional observations from a re-analysis of the deposited data

Results flagged for a closer look

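The changes of Btk in the 2 cell lines had opposite signs, 0.08 in 129O1 and −0.03 in EpiSC5, a difference of 0.12 on the log2 scale. Inppl1 did the same, with 0.13 and −0.02, a difference of 0.15. Each line gave 1 list per state, so neither difference was tested.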

How the results depend on the processing

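Peak lists carry no depth, and with 2 lines per state the p-values rest on 1 residual degree of freedom and a prior of 5.04 from all genes tested. The covered-length test called 3603 genes, and limma called 0 with no filter (4814 at an unadjusted p under 0.05), 172 from the higher-scoring 50% of each list, 2388 over the gene body alone and 6042 with 50 kb each side. Leaving out 1 list at a time, with no cell line term, the count ran from 0 to 4281 (limma). It was 0 without OPC of 129O1 and 0 without OPC of EpiSC5 (2857 and 2517 at an unadjusted p under 0.05), and 2116 without OL of EpiSC5; a lone list is then assumed to vary like the other state. The share of calls that were wider was 43.4% with scaling to equal covered length, 57.7% without it and 50.7% from equal numbers of peaks, and the median gene moved from −0.24 to −0.13 without scaling. The pathway lists had 19 calls, against 0 with no filter, 4 from the higher-scoring 50%, 29 with 50 kb each side, and 0 to 25 with 1 list left out: 0 without either OPC list and 12 without OL of EpiSC5. With those 3 counts of 0 there were 23, 15 and 15 pathway genes at an unadjusted p under 0.05 (no filter, without OPC of 129O1, without OPC of EpiSC5).

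Without the cell line as a replicate block 2602 genes and 14 pathway genes were called, and of Syk and Btk, the members with a test, Syk lost its call. Of the 21 called pathway genes and relatives 14 were still called without the block.

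Between the lines 11 genes were called, 25 with a minimum of 3 kb, and 0 to 181 with 1 list left out, where no term for state remained and the states were unequal between lines, so that these counts are no test of the lines (0 without OPC of 129O1, with 106 at an unadjusted p under 0.05, 181 without OPC of EpiSC5, 6 without OL of 129O1 and 24 without OL of EpiSC5). limma called 0 with a pseudocount of 0.25 kb, no filter, no scaling, equal numbers of peaks, the higher-scoring 50%, the gene body alone or no term for state (an added alternative), with 843, 894, 2411, 837, 435, 638 and 107 genes at an unadjusted p under 0.05.

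SOX6 in both OPC lists was found for 4 members, for 2 from the higher-scoring 50% (Plcg2 and Syk) and for 0 when each list was shortened to the length of the OL list. In single OPC lists it was found for 4 to 6. OL-only regions numbered 15, 9 from the higher-scoring 50%, none of them at Syk, and 15 to 17 with 1 list left out. The left-out lists for SOX6 and for regions were chosen after seeing the data. Inppl1 reversed over the gene body alone (−1.04). Fyb and Plcg2 stood at 2.33 and 1.95 with 50 kb each side and at 5.12 and 4.91 with a pseudocount of 0.25 kb, and Csf1r at 1.10 and 3.22. Lyn stood at −1.19, and at 0 from the higher-scoring 50%.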

Other observations

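With 50 kb each side the surroundings of these genes added acetylation in both states. Csf1r then carried 2.88 and 2.38 kb as OPC and 7.50 and 7.33 kb as OL, so OL coverage beyond its 10 kb window exceeded that within it. Fyb had 2.89 and 2.40 kb in OPC and 17.7 and 20.0 kb in OL. Lyn stood at 2.91 and 2.01 kb in OPC and 0.923 and 0.900 kb in OL, and Inpp5d at 2.32 kb in OPC of both lines and 1.65 and 1.38 kb in OL. SOX6 at Inpp5d, listed only in OL within 10 kb, covered 0.293 and 0.224 kb in OPC and 0.339 kb in OL over this wider window. At Plcg2 SOX6 covered 0.782 and 0.757 kb in OPC and 0 kb in OL.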
